A study of Oryza sativa with 4 samples.

Results

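The photosystem and light-harvesting genes of rice were followed in whole plants that overexpress a CCCH zinc finger protein and in plants without the transgene. A gene was counted as a member when the annotation deposited with the expression values named a photosystem, a chlorophyll a/b binding protein, a light-harvesting protein or an oxygen-evolving protein. Of 31414 genes in the table, 52 were members. Among its transcripts with a matching annotation, each was represented by the one with the highest mean FPKM (fragments per kilobase of transcript, scaled to the mapped fragments of the library). The choice used annotation words only and no expression difference. The 52 genes were spread over 11 of the 12 chromosomes, with 11 on chromosome 7 and none on chromosome 10.

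Both photosystems are pigment-protein complexes of the chloroplast thylakoid membrane. Antenna proteins bind chlorophyll a and b and pass the absorbed energy to the reaction centres. Photosystem II splits water with the help of extrinsic oxygen-evolving proteins on the lumen side, and photosystem I passes electrons from plastocyanin to ferredoxin. The antenna proteins and most small subunits are encoded in the nucleus, where light and the circadian clock are known to control their transcription, whereas core proteins such as D1 are encoded in the plastid genome.

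The NT plants were non-transgenic rice of cv. Nakdong. The OsC3H10OX plants, given as PGD1::OsTZF8 in the sample labels, were T4 plants of line 20 in the same cultivar and carried OsC3H10 under the PGD1 promoter for overexpression in the whole body. Plants of both groups were 3 weeks old, had been started on MS medium and moved to soil pots, received no treatment and were used whole. Each group had 2 libraries, here called replicates 1 and 2, and the transgenic group was 1 line, so that effects of the transgene and of its insertion cannot be told apart. The study's methods call the 2 libraries of a group biological replicates, without saying how many plants went into each. It was not stated whether the groups were grown and sequenced together, and the occasion and the genotype cannot be told apart. The transgene's own transcript was not analysed here and served as no check of the labels.

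The libraries summed to between 731710 and 765959 FPKM, and 29644 to 29992 transcripts reached 1 FPKM in a library. Over transcripts, Pearson's r of log2(FPKM + 1) was 0.975 for the pair of NT libraries and 0.981 for the pair of OsC3H10OX libraries, and across the groups it ran from 0.949 to 0.975. The steps between low values put 1 FPKM at 36.8 and 56.5 fragments per kilobase in NT and at 40.8 and 37.8 in OsC3H10OX. Each member with a mean of at least 100 FPKM therefore rested on at least 2384 fragments in every library.

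The photosystem genes were among the most abundant transcripts of these plants. Their means ran from 0.50 to 2825 FPKM with a median of 177 FPKM, and 30 of the 52 reached 100 FPKM. Between 20 and 21 of the 100 most abundant transcripts of each library were members. Together the members took 2.96% and 3.02% of all FPKM in NT replicates 1 and 2, and 3.22% and 3.41% in OsC3H10OX replicates 1 and 2. The share was thus higher in both OsC3H10OX libraries, and their summed FPKM had a ratio of 1.08 between the group means. The photosystem II antenna held most of that gap. In an mRNA measurement of whole plants, more or fewer green cells and more or less of these transcripts per cell cannot be told apart.

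**Figure D1:**
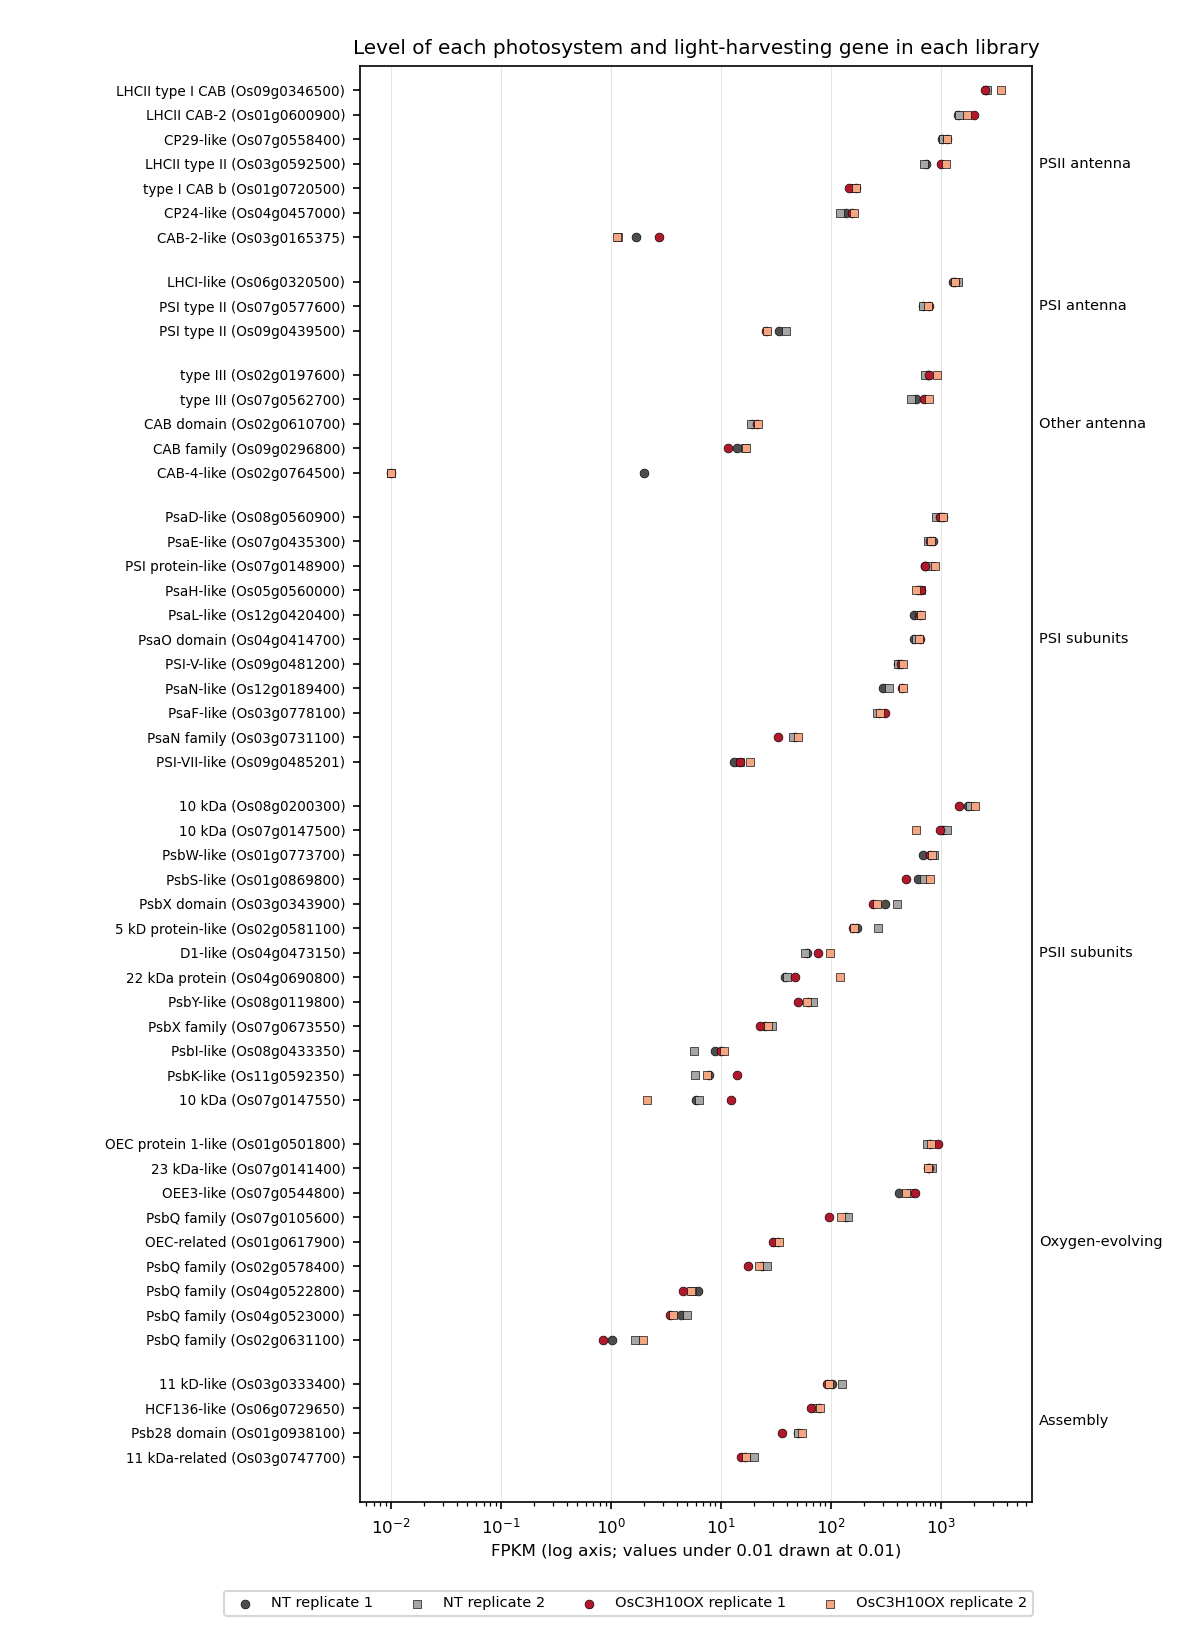
FPKM on a log axis of each of the 52 genes in the 4 libraries, grouped by role. Circles are replicate 1 and squares replicate 2 (NT in greys, OsC3H10OX in red and orange), and the values of most genes lie close together over levels from 0.50 to 2825 FPKM. The widest gaps are those of CAB-4-like (Os02g0764500), of the 10 kDa gene Os07g0147550 and of the 22 kDa gene. For CAB-4-like the member transcript, not the main one of the gene, is drawn, and it was near 0 in all libraries but NT replicate 1.

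None of the photosystem genes differed between OsC3H10OX and NT past the test. Limma on the deposited log2 values called 0 of the 51 members tested higher and 0 lower at an adjusted p under 0.05. Over all 30449 transcripts tested 0.647% were called higher and 0.841% lower, together 1.49%. Of the transcripts of at least 100 FPKM, 0.528% were called. Shares this low leave room for 0 calls among 51 genes. Limma without a mean-variance trend and with robust estimation also called 0. At an unadjusted p under 0.05 there were 4 members higher and 1 lower, and 8.35% and 9.36% of all transcripts. The log2 differences (OsC3H10OX minus NT) of the members ran from -0.59 to 0.95 with a median of 0.01 (-0.09 to 0.10 with 1 library left out), beside a median of 0.00 for all transcripts tested and of -0.04 for the 1136 transcripts of at least 100 FPKM. Of the members, 27 (52.9%) were above 0 and 24 below, and of all transcripts tested 50.3% were above 0. The lowest adjusted p among them was 0.138.

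No member reached a 2-fold difference, which 4.03% of the transcripts tested did. For 45 of the 51 members (88.2%) the 95% interval of the difference lay within 2-fold either way, and over all transcripts this share was 83.6%. The remaining intervals were wider and left a 2-fold difference possible. In the deposited log2 values, 14 members (27.5%) had both OsC3H10OX libraries above both NT libraries, and 9 (17.6%) had both below. Over all transcripts the shares were 26.8% and 26.1%. The share of members with non-overlapping groups was thus close to the background for higher values and under it for lower ones. Whether the groups overlapped differed between log2 and FPKM in 8 members. The gap between the replicates of a group was larger than the difference between the groups in 37 of the 51. With 2 libraries a group, an exact permutation test of a single gene cannot go below p = 0.333.

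**Figure D2:**
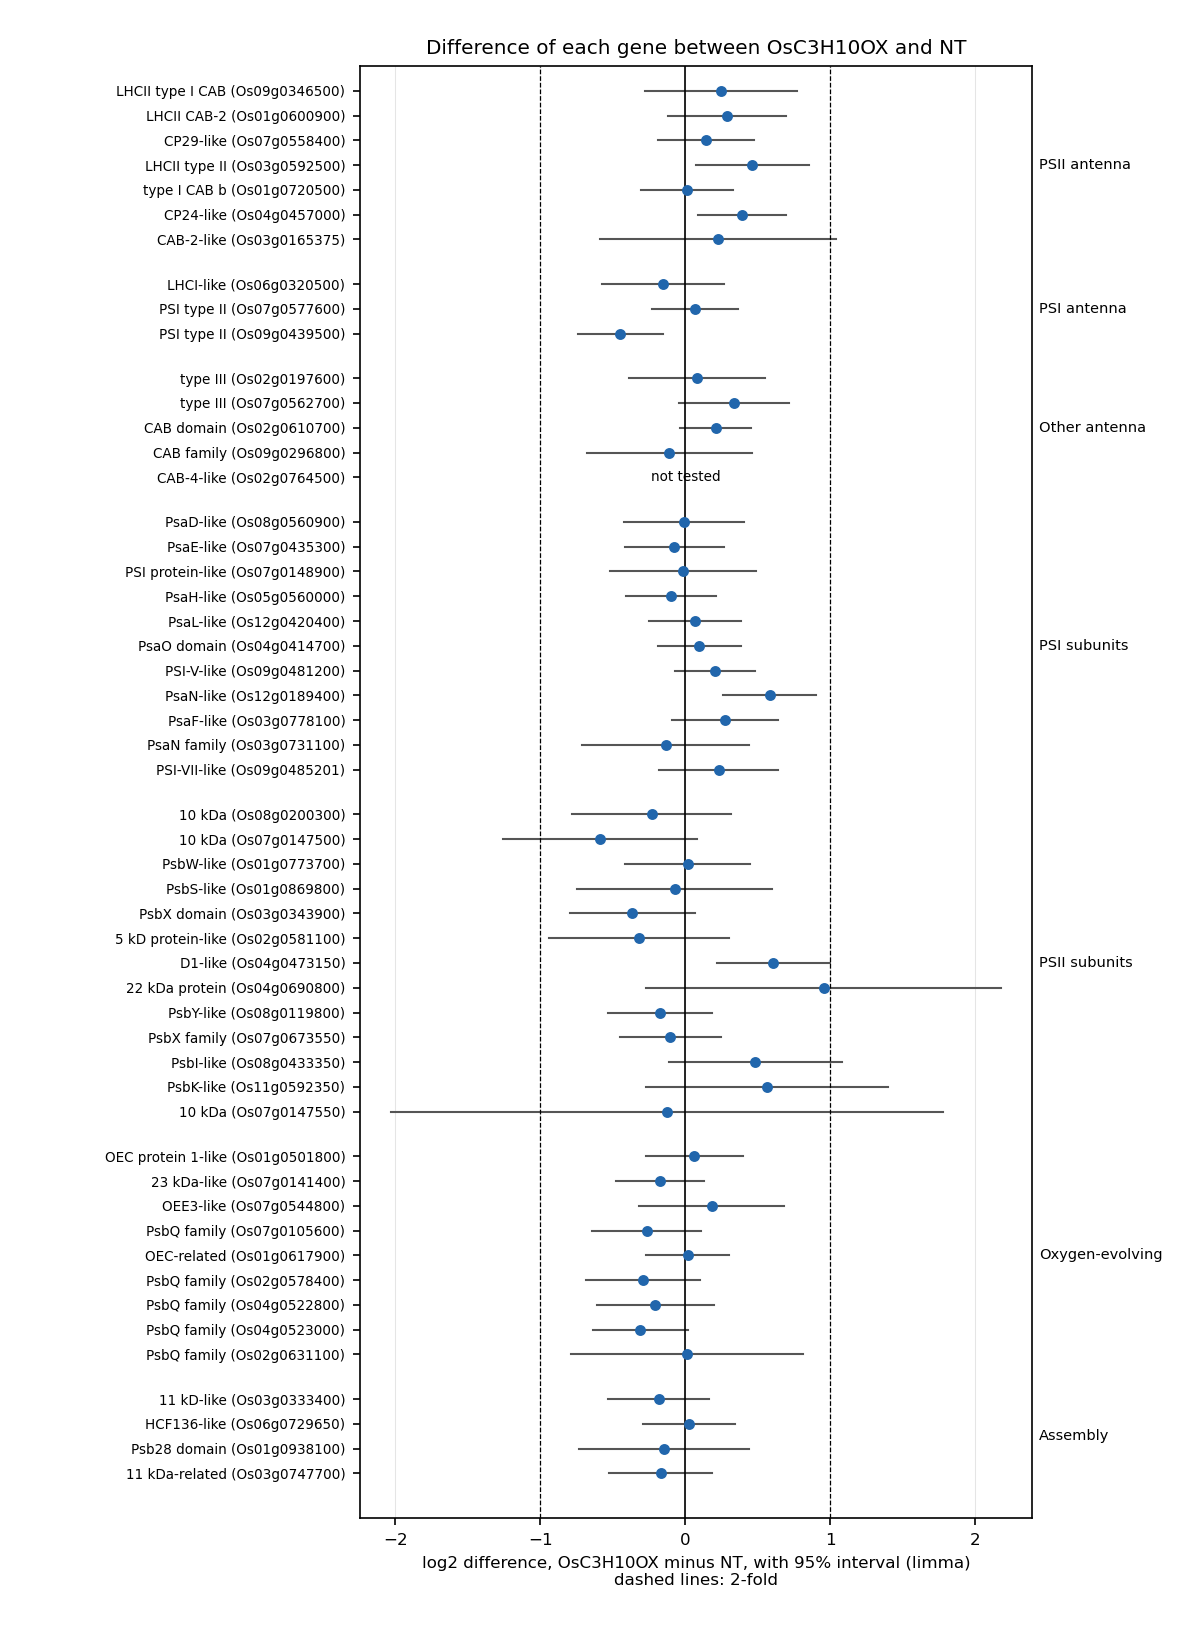
Log2 difference between OsC3H10OX and NT of each member (points) with its 95% interval from limma (lines), by role, and dashed lines at 2-fold. All points lie between -0.59 and 0.95, and the 7 genes of the photosystem II antenna all have points above 0.

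The 7 genes of the photosystem II antenna were all above 0 in their log2 differences, with a median of 0.25. Their summed level was 6108 and 6164 FPKM in NT and 7019 and 7932 FPKM in OsC3H10OX, a ratio of 1.22 between group means of 6136 ± 39.6 and 7475 ± 645 FPKM (SD, n = 2 each). Neither OsC3H10OX sum overlapped with NT, yet none of the 7 genes passed the test. Without normalization between libraries, 6 of the 7 were above 0, with a median of 0.24, and the exception was the type I CAB b gene (Os01g0720500).

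The most abundant member was the LHCII type I CAB gene Os09g0346500 (chromosome 9, 10845778 to 10847012, IRGSP-1.0), which encodes a protein of the main trimeric antenna. It had 2571 and 2632 FPKM in NT and 2514 and 3581 FPKM in OsC3H10OX. Only OsC3H10OX replicate 2 was high, and the groups overlapped (log2 difference 0.25 ± 0.20, SE, adjusted p = 0.548). The LHCII CAB-2 gene Os01g0600900 (chromosome 1, 23607362 to 23608541) had 1443 and 1472 FPKM in NT and 2033 and 1756 FPKM in OsC3H10OX. Here replicate 1 was the higher of the OsC3H10OX libraries and the groups did not overlap, with a log2 difference of 0.29 (95% interval -0.12 to 0.70, adjusted p = 0.399). The proteins of this family are close copies of each other, and how reads shared between their genes were counted is not given in the sources used here.

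LHCII type II (Os03g0592500; chromosome 3, 22000042 to 22001236), the second main component of the trimers, had the largest difference of the group. Its level was 743 and 714 FPKM in NT and 1017 and 1126 FPKM in OsC3H10OX. Both OsC3H10OX libraries stood well above NT, and the replicates lay 0.11 apart in log2 in NT and 0.24 apart in OsC3H10OX. The log2 difference was 0.46 (95% interval 0.07 to 0.85, a fold of 1.38), with a limma adjusted p of 0.237. CP24-like (Os04g0457000; chromosome 4, 22835912 to 22837163), a minor antenna protein next to the trimers, had 139 and 122 FPKM in NT and 156 and 163 FPKM in OsC3H10OX. The groups did not overlap, and its log2 difference was 0.39 (95% interval 0.09 to 0.69, adjusted p = 0.218). These were the 2 genes of the group with an unadjusted p under 0.05.

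CP29-like (Os07g0558400), the other minor antenna protein found, had 1042 and 1060 FPKM in NT and 1150 and 1136 FPKM in OsC3H10OX. The groups were again separate, although the log2 difference was 0.14. The type I CAB b gene Os01g0720500 had 169 and 164 FPKM in NT and 146 and 169 FPKM in OsC3H10OX, and the groups overlapped. The CAB-2-like locus Os03g0165375 lay between 1.15 and 2.78 FPKM in the 4 libraries, the lowest level of this group.

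**Figure D3:**
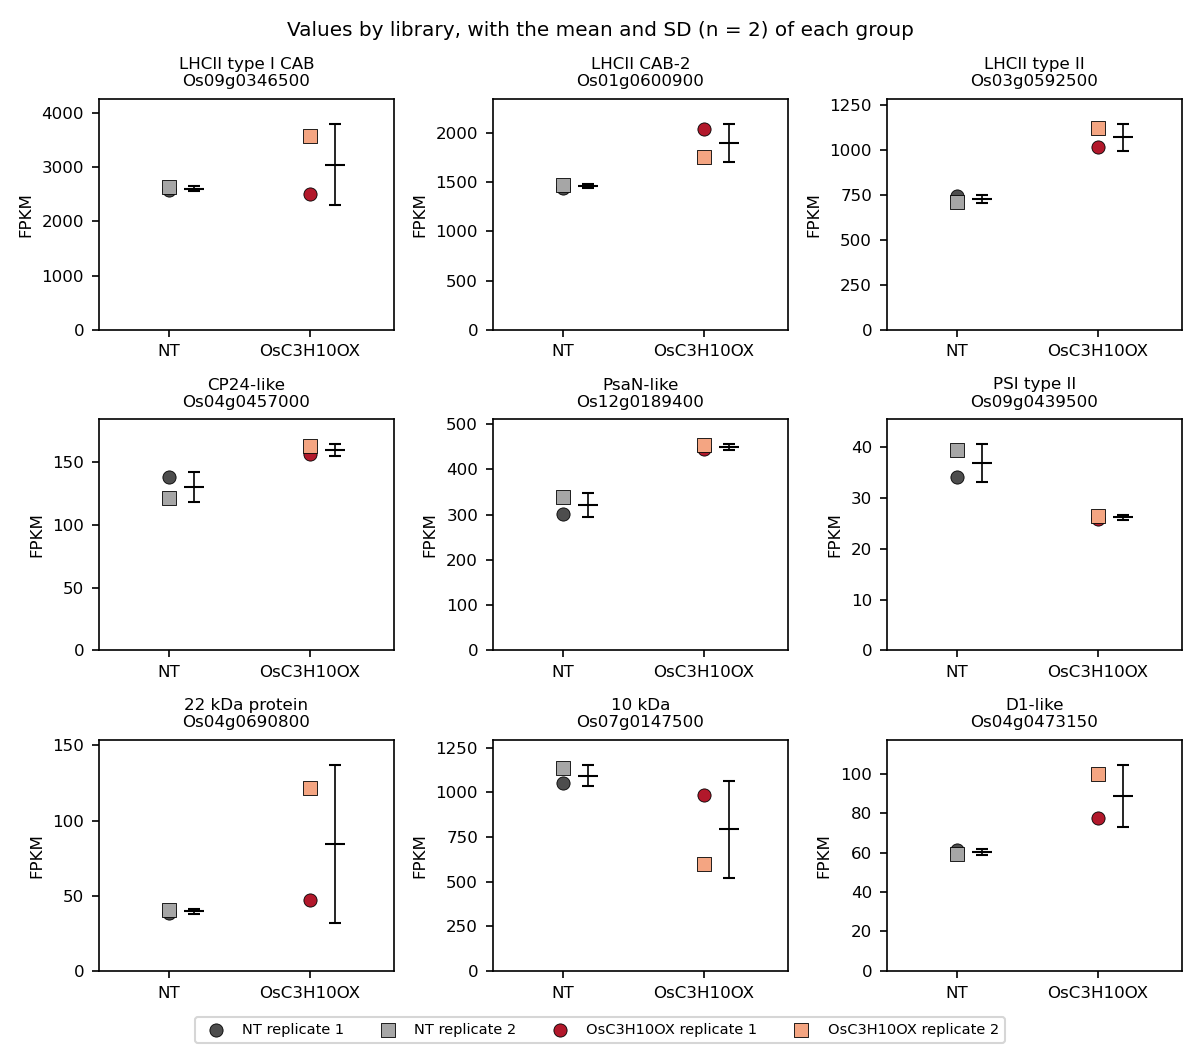
FPKM of 9 members by library (circles replicate 1, squares replicate 2), with the group mean and SD (n = 2) as bars beside the points and axes from 0. LHCII CAB-2, LHCII type II, CP24-like, PsaN-like and D1-like had both OsC3H10OX libraries above NT, PSI type II and the 10 kDa gene had both below, the LHCII type I gene overlapped, and the 22 kDa gene was high in OsC3H10OX replicate 2 alone (122 FPKM).

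The photosystem I antenna did not share this pattern of signs. Its 3 genes summed to 2012 and 2171 FPKM in NT and to 2173 and 2155 FPKM in OsC3H10OX, a ratio of 1.03, and 1 gene was above 0 and 2 below. The LHCI-like gene Os06g0320500 had 1290 and 1432 FPKM in NT and 1354 and 1356 FPKM in OsC3H10OX. Both OsC3H10OX values lay between the NT values. Of the pair annotated as type II proteins of photosystem I, Os07g0577600 had 688 and 699 FPKM in NT and 793 and 772 FPKM in OsC3H10OX, a log2 difference of 0.07 with separate groups.

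The other type II gene, Os09g0439500 (chromosome 9, 16287915 to 16290736), was the lowest expressed antenna gene of photosystem I. It had 34.2 and 39.5 FPKM in NT and 25.8 and 26.5 FPKM in OsC3H10OX. It was lower in both OsC3H10OX libraries than in NT, by -0.45 on the log2 scale (95% interval -0.74 to -0.15, adjusted p = 0.176). It was the 1 member of the 51 with an unadjusted p under 0.05 in the lower direction.

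The 5 antenna genes not assigned to a photosystem summed to 1402 and 1296 FPKM in NT and to 1524 and 1759 FPKM in OsC3H10OX. The ratio of the group means was 1.22. Both type III genes among them were abundant. Os07g0562700 (chromosome 7, 22487433 to 22488617) had 603 and 539 FPKM in NT and 702 and 794 FPKM in OsC3H10OX. The groups did not overlap, and the log2 difference was 0.34 (95% interval -0.04 to 0.72, adjusted p = 0.32). Os02g0197600 had 763 and 721 FPKM in NT and 788 and 926 FPKM in OsC3H10OX, separate in FPKM but overlapping in the normalized log2 values (log2 difference 0.08). The CAB domain gene Os02g0610700 had 19.2 and 18.9 FPKM in NT and 21.6 and 22.1 FPKM in OsC3H10OX, with separate groups and close replicates. The CAB family gene Os09g0296800 lay between 11.8 and 17.1 FPKM with overlapping groups.

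The fifth gene of this set, CAB-4-like (Os02g0764500), was not tested. Its member transcript had 2.0 FPKM in NT replicate 1 and under 0.002 FPKM in the other libraries. The main transcript of this gene is annotated as similar to Lhca5, a protein of the photosystem I antenna, in words outside the member rule. That transcript had 29.8 and 30.0 FPKM in NT and 19.2 and 32.2 FPKM in OsC3H10OX, with overlapping groups and a log2 difference of -0.24. Over all 15 antenna genes, 11 of the 14 tested were above 0 and 3 below, with a median of 0.18 and none called.

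The subunits of photosystem I differed little between the groups. Their 11 genes summed to 5453 and 5477 FPKM in NT and to 5721 and 5932 FPKM in OsC3H10OX, a ratio of 1.07. In the log2 values 6 genes were above 0 and 5 below, with a median of 0.07. Without normalization between libraries 9 were above 0 and 2 below, since 3 genes with differences close to 0 changed sign.

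PsaN-like (Os12g0189400; chromosome 12, 4506778 to 4507716), a subunit on the lumen side known from Arabidopsis to help the reaction with plastocyanin, had the lowest adjusted p of all members. It had 302 and 340 FPKM in NT and 444 and 454 FPKM in OsC3H10OX, means of 321 ± 26.7 and 449 ± 6.66 FPKM (SD, n = 2 each). Both OsC3H10OX libraries were well above NT, with a log2 difference of 0.58 (95% interval 0.26 to 0.90, a fold of 1.5) and an adjusted p of 0.138. The second gene of this annotation, PsaN family Os03g0731100, had 47.2 and 45.3 FPKM in NT and 33.4 and 50.2 FPKM in OsC3H10OX. Its groups overlapped.

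The subunits that dock ferredoxin on the stromal side had differences close to 0. PsaD-like (Os08g0560900) had 1062 and 916 FPKM in NT and 988 and 1062 FPKM in OsC3H10OX, a log2 difference of -0.01. PsaE-like (Os07g0435300) had 848 and 771 FPKM in NT and 807 and 827 FPKM in OsC3H10OX, a log2 difference of -0.08. In both genes the groups overlapped, and each difference turned its sign without normalization. The 95% intervals, -0.43 to 0.40 for PsaD-like and -0.42 to 0.27 for PsaE-like, excluded a 2-fold difference. PsaF-like (Os03g0778100), which docks plastocyanin on the lumen side in algae, had 274 and 266 FPKM in NT and 315 and 280 FPKM in OsC3H10OX, with separate groups and a log2 difference of 0.27.

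PsaH-like (Os05g0560000) and PsaL-like (Os12g0420400), known from Arabidopsis as a contact site for mobile LHCII, had log2 differences of -0.10 and 0.07. PsaH-like lay between 592 and 666 FPKM and PsaL-like between 577 and 664 FPKM over the 4 libraries. PsaO (Os04g0414700) had 578 and 596 FPKM in NT and 653 and 639 FPKM in OsC3H10OX, and subunit V (Os09g0481200) had 409 and 410 FPKM in NT and 439 and 458 FPKM in OsC3H10OX. Both genes had separate groups and differences of 0.10 and 0.20. The photosystem I protein-like gene Os07g0148900 lay between 715 and 887 FPKM with overlapping groups.

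The photosystem II subunits had the widest spread. Their 13 genes summed to 4833 and 5440 FPKM in NT and to 4404 and 5067 FPKM in OsC3H10OX, a ratio of 0.922 with overlapping groups, and 5 were above 0 and 8 below. In 12 of the 13 the gap between replicates exceeded the difference between the groups, and 4 of the 5 largest differences above 0 and 3 of the 5 largest below 0 among all members were in this set. D1-like, PsbI-like and PsbK-like, the plastid-type loci described below, were among those largest above 0. Without these loci, 2 genes of the set were above 0 and 8 below, with a median of -0.15.

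The 22 kDa protein of photosystem II (Os04g0690800; chromosome 4, 35337066 to 35338179), the PsbS protein that protects the photosystem by dissipating excess light energy as heat, had the largest difference of all members. It had 38.5 and 40.6 FPKM in NT and 47.2 and 122 FPKM in OsC3H10OX. Both OsC3H10OX libraries were above NT, but replicate 2 was far above replicate 1, and the log2 difference of 0.95 had a 95% interval of -0.27 to 2.18 (adjusted p = 0.365). The size rested on replicate 2. Without OsC3H10OX replicate 2 the log2 difference was 0.29, and without replicate 1 it was 1.62 with an adjusted p of 0.0405, the single call among members in any alternative. That fit sets 1 OsC3H10OX library against NT and assumes that it varies like the NT pair, although the OsC3H10OX pair lay far further apart than the NT pair. The more abundant PsbS-like gene Os01g0869800 had 624 and 703 FPKM in NT and 489 and 810 FPKM in OsC3H10OX. It was also highest in OsC3H10OX replicate 2, but lowest in replicate 1, and the groups overlapped.

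The 10 kDa protein of photosystem II is known in Arabidopsis as PsbR, which helps to hold the oxygen-evolving proteins. Os08g0200300, the most abundant gene for it, had 1769 and 1839 FPKM in NT and 1483 and 2058 FPKM in OsC3H10OX, so that both NT values lay between the OsC3H10OX values. Os07g0147500 (chromosome 7, 2454337 to 2455636) had 1051 and 1137 FPKM in NT and 986 and 600 FPKM in OsC3H10OX. Both OsC3H10OX libraries were below NT, replicate 2 by far more, and the log2 difference of -0.59 (95% interval -1.26 to 0.08, adjusted p = 0.326) was the largest below 0 among the members. Its neighbour Os07g0147550 had 5.94 and 6.33 FPKM in NT and 12.4 and 2.13 FPKM in OsC3H10OX. The NT values were close and the OsC3H10OX values lay on either side of them (95% interval -2.03 to 1.77). The 2 adjacent genes share their annotation, and a split of shared reads between them cannot be told apart from levels of each.

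Among small subunits of photosystem II, the 5 genes for PsbW, PsbX, PsbY and the 5 kD protein had 1 difference above 0 and 4 below, with a median of -0.17 and none called. PsbI-like and PsbK-like, small subunits too, were above 0 and are described with the plastid-type loci. The PsbX domain gene Os03g0343900 (chromosome 3, 12812217 to 12812882) had 310 and 400 FPKM in NT and 245 and 265 FPKM in OsC3H10OX. The gene was lower in both OsC3H10OX libraries than in NT, by -0.37 on the log2 scale (95% interval -0.80 to 0.07, adjusted p = 0.338). The 5 kD protein-like gene Os02g0581100 had 173 and 271 FPKM in NT and 160 and 163 FPKM in OsC3H10OX. NT replicate 2 stood apart there, and the groups overlapped in the normalized log2 values (log2 difference -0.32). PsbW-like (Os01g0773700) lay between 696 and 874 FPKM, PsbY-like (Os08g0119800) between 50.4 and 69.6 FPKM and the PsbX family gene Os07g0673550 between 23 and 29.3 FPKM, all with overlapping groups in log2.

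A set of 4 members was annotated as proteins that plants encode in the plastid genome, namely D1, PsbI, PsbK and subunit VII of photosystem I. All 4 were above 0, with a median of 0.52, and none was called. The D1-like locus Os04g0473150 (chromosome 4, 23653623 to 23654065) had 61.3 and 59.2 FPKM in NT and 77.4 and 99.9 FPKM in OsC3H10OX. Both OsC3H10OX libraries were above NT, with a log2 difference of 0.61 (95% interval 0.22 to 0.99, a fold of 1.52) and an adjusted p of 0.170. PsbI-like (Os08g0433350) had 8.91 and 5.78 FPKM in NT and 10.1 and 10.6 FPKM in OsC3H10OX, also with separate groups (log2 difference 0.48). PsbK-like (Os11g0592350) had 7.81 and 5.88 FPKM in NT and 14.0 and 7.60 FPKM in OsC3H10OX and overlapped (log2 difference 0.56). Subunit VII (Os09g0485201) lay between 13.4 and 18.7 FPKM, with overlapping groups. These loci were 186 to 442 nt long on nuclear chromosomes, and reads of plastid transcripts that map to them cannot be told apart from reads of the loci themselves. Fragments were not estimated for transcripts under 500 nt, so the number behind these values is not given. The depth estimate took 175 to 180 nt off each transcript length, which leaves little of the 186 nt of PsbK-like.

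**Figure D4:**
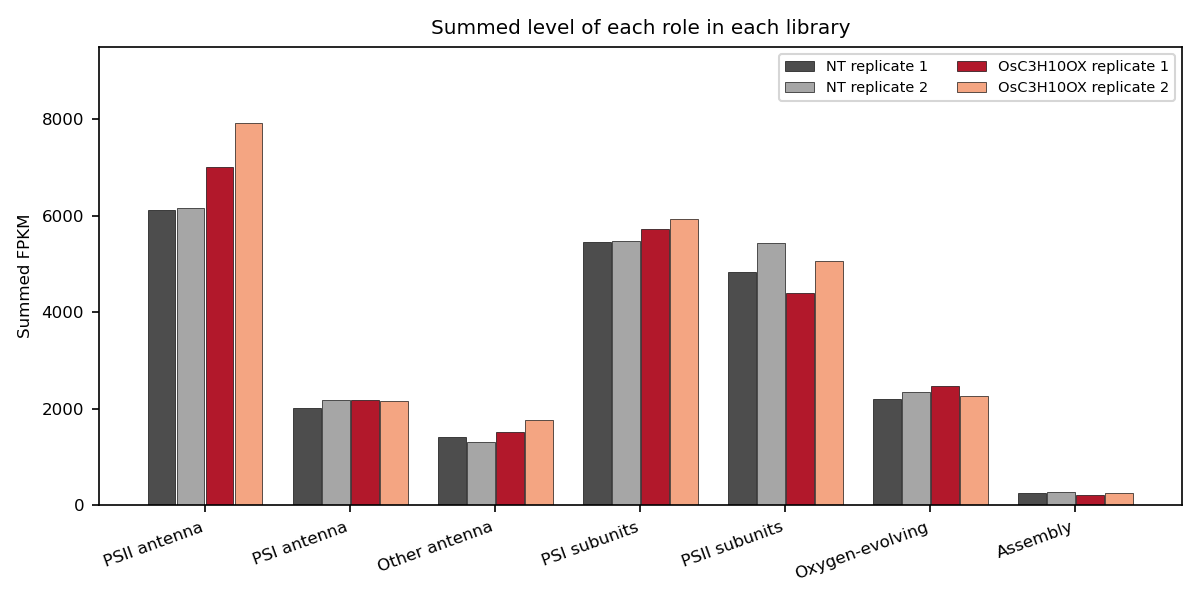
Summed FPKM of the members of each role in each library (bars from 0). The photosystem II antenna was higher in both OsC3H10OX libraries (7019 and 7932 FPKM against 6108 and 6164 FPKM in NT). The other antenna proteins (1524 and 1759 FPKM against 1402 and 1296 FPKM in NT) and the photosystem I subunits were also higher in both. The assembly factors were lower in both (211 and 249 FPKM against 250 and 272 FPKM in NT), with OsC3H10OX replicate 2 (248.9 FPKM) hardly below NT replicate 1 (249.6 FPKM). As a share of all FPKM these 2 libraries were in the other order (0.0335% and 0.0332%). The photosystem I antenna, the photosystem II subunits and the oxygen-evolving proteins overlapped between the groups.

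The oxygen-evolving proteins had no gene with both OsC3H10OX values above NT in log2 and 4 of 9 (44.4%) with both below, where 26.8% and 26.1% of all transcripts were separate in these directions. Their median was -0.17, with 4 genes above 0 and 5 below, and the summed level of 2206 and 2337 FPKM in NT and 2476 and 2265 FPKM in OsC3H10OX overlapped. The median was -0.05 without normalization and -0.20 with FPKM summed per gene, also without normalization, so its size depended on the setting. The abundant genes had small differences. Oxygen-evolving complex protein 1-like (Os01g0501800), which stabilizes the manganese cluster, had 803 and 755 FPKM in NT and 954 and 817 FPKM in OsC3H10OX, a log2 difference of 0.06. The 23 kDa-like gene Os07g0141400 lay between 771 and 834 FPKM, with both OsC3H10OX values below NT in log2 but not in FPKM (log2 difference -0.17), and oxygen-evolving enhancer protein 3-like (Os07g0544800) between 422 and 581 FPKM (log2 difference 0.18). The oxygen-evolving complex-related gene Os01g0617900 lay between 30.1 and 34.0 FPKM.

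The 5 genes annotated as the PsbQ family, extrinsic proteins of the oxygen-evolving complex and their relatives, had a median of -0.27, with 1 above 0 and 4 below. None was called (adjusted p from 0.298 to 0.989), and all 5 of the 95% intervals held 0. Os07g0105600 (chromosome 7, 306053 to 306968) had 137 and 145 FPKM in NT and 96.7 and 125 FPKM in OsC3H10OX. The groups were separate, with OsC3H10OX replicate 1 the lowest (log2 difference -0.27, adjusted p = 0.398). Os02g0578400 had 23.6 and 26.3 FPKM in NT and 17.8 and 22.2 FPKM in OsC3H10OX. It was likewise lowest in OsC3H10OX replicate 1, with separate groups and a log2 difference of -0.29. The neighbours Os04g0522800 and Os04g0523000 on chromosome 4 had low levels. Os04g0523000 had 4.35 and 4.94 FPKM in NT and 3.45 and 3.71 FPKM in OsC3H10OX, separate groups with a log2 difference of -0.31 (95% interval -0.64 to 0.02, adjusted p = 0.298). Os04g0522800 lay between 4.55 and 6.23 FPKM, with a log2 difference of -0.21. Os02g0631100 was near the detection limit, at 0.850 to 1.98 FPKM.

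Of the 4 assembly factors, 1 was above 0 and 3 below, with a median of -0.16 and none called. The 11 kD-like gene Os03g0333400 had 104 and 127 FPKM in NT and 93.0 and 96.1 FPKM in OsC3H10OX, with separate groups and a log2 difference of -0.18. HCF136-like (Os06g0729650), known in Arabidopsis to be needed for the assembly of the photosystem II reaction centre, had 78.2 and 74.0 FPKM in NT and 67.1 and 80.9 FPKM in OsC3H10OX and overlapped (log2 difference 0.02). The Psb28 domain gene Os01g0938100 lay between 35.9 and 54.9 FPKM and the 11 kDa-related gene Os03g0747700 between 15.5 and 20.3 FPKM, both with overlapping groups.

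The OsC3H10OX libraries differed from each other in these genes. Replicate 2 was above replicate 1 in 74.5% of the members tested, whereas this was so in 46.3% of all transcripts tested. Among sets described below, it was so in 29 of 37 electron transport genes, 6 of 7 green tissue markers and 6 of 7 clock genes. Of the root markers it was so in 2 of 5. In NT, replicate 2 was above replicate 1 in 32 of the 51 members tested and in 53.7% of all transcripts tested. The median gap between replicates was 0.23 on the log2 scale in OsC3H10OX and 0.11 in NT, beside 0.17 and 0.12 for all transcripts. For the transcripts of at least 100 FPKM it was 0.199 and 0.0964. A wider gap in OsC3H10OX than in NT was thus not particular to the members. Without OsC3H10OX replicate 2, 18 members (35.3%) had an unadjusted p under 0.05, beside 25% of all transcripts, and without replicate 1 there were 12 (23.5%), beside 19.5%. The full fit had 5 (9.8%), beside 17.7%. With 1 OsC3H10OX library left, the spread came from the NT pair alone and the lone library was assumed to vary like it.

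Marker genes for green tissue, for root and for the circadian clock were read beside these values, since the plants were taken whole. The 10 green tissue markers (Rubisco small chain, phosphoribulokinase and carbonic anhydrase) summed to 2046 and 1767 FPKM in NT and to 2372 and 2560 FPKM in OsC3H10OX. Rubisco small chain (Os12g0291100) had 413 and 285 FPKM in NT and 736 and 763 FPKM in OsC3H10OX, separate groups with a log2 difference of 1.10 and an adjusted p of 0.119. The 5 root markers summed to 657 and 649 FPKM in NT and to 574 and 540 FPKM in OsC3H10OX, and RCc3 (Os02g0662000), the most abundant, had 392 and 390 FPKM in NT and 265 and 272 FPKM in OsC3H10OX. The green sum was thus higher and the root sum lower in both OsC3H10OX libraries, but each followed 1 gene most. Of the 7 green markers tested, 5 were above 0 and 2 below with a median of 0.06, and Rubisco small chain was the 1 with separate, higher groups in log2. The 3 markers of at least 100 FPKM were all above 0. Beside Rubisco small chain these were phosphoribulokinase (0.17) and the chloroplast carbonic anhydrase Os01g0639900 (0.06), both with overlapping groups in log2. The 2 below 0 were carbonic anhydrases with means of 1.16 and 21.1 FPKM. Of the 5 root genes, 4 were above 0 and RCc3 alone below. All 7 clock genes had log2 differences above 0, with a median of 0.23, and 5 had separate groups. Of all transcripts tested, 50.3% were above 0 and 26.8% were separate in the higher direction. LHY (Os08g0157600), a morning gene of the clock, had 3.31 and 3.25 FPKM in NT and 4.38 and 7.03 FPKM in OsC3H10OX. None of the 7 green markers tested, the 5 root markers and the 7 clock genes was called by limma. At an unadjusted p under 0.05 there were 1, 2 and 0 of them, beside 17.7% of all transcripts tested. The part of tissue share or hour of harvest in the levels of the photosystem genes was not tested.

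Genes of electron transport and of the chloroplast ATP synthase were taken by annotation words. The words were plastocyanin, cytochrome b6, cytochrome f, Rieske, ferredoxin, its reductases, NDH and chloroplast or plastid ATP synthase. They also match mitochondrial Rieske proteins and enzymes that use ferredoxin. Of 40 such genes 37 were tested, with 0 called higher and 1 lower, a median of -0.11, and 16 above 0 and 21 below. Plastocyanin (Os06g0101600), the electron donor of photosystem I, had 1308 and 1401 FPKM in NT and 1453 and 1549 FPKM in OsC3H10OX, with a log2 difference of 0.00 after normalization. The Rieske domain gene Os07g0556200 lay between 420.0 and 567 FPKM with overlapping groups. The gene called was ferredoxin-like Os03g0659200 (chromosome 3, 25800414 to 25801209), which fell from 35.8 and 29.4 FPKM in NT to 12.6 and 11.6 FPKM in OsC3H10OX, a log2 difference of -1.33 (95% interval -1.69 to -0.97, adjusted p = 0.0366). This call did not hold without the filter on low values (adjusted p = 0.0846), with FPKM added up per gene (log2 difference -0.39, adjusted p = 0.163) or with any library left out (adjusted p from 0.0565 to 0.21).

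Among 14 member genes with more than 1 transcript in the table, 15 further transcripts were tested. Limma called 0 of them at an adjusted p under 0.05, and 3 had an unadjusted p under 0.05. The second transcript of LHCII type II (Os03t0592500-02) had a log2 difference of 0.88 (adjusted p = 0.371), in the same direction as the main one. The third transcript of the oxygen-evolving complex-related gene (Os01t0617900-03) had -0.56 (adjusted p = 0.174), whereas the main transcript had 0.02. FPKM were divided among overlapping transcripts of a gene by the authors' tool, and the summed level of this gene had a log2 difference of -0.23.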

How the data were processed

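The authors trimmed single-end TruSeq reads with Trimmomatic 0.32 (quality 20), mapped them with TopHat to the IRGSP-1.0 genome, annotated by RAP-DB, and deposited FPKM for each transcript and library. The tool behind FPKM is not given in the sources used here. The deposited log2 values matched log2(FPKM + 1) quantile-normalized over the 4 libraries (sorted values within 0.00178). The authors' comparison was deposited as a signed fold change score, p-values and group summaries, and these were not used.

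Log2 differences (OsC3H10OX minus NT) were tested two-sided for the 30449 transcripts that reached 1 FPKM in 2 or more libraries, using limma 3.58.1 under R 4.3.3 (trended eBayes, prior df 2.37), adjusted with Benjamini-Hochberg over all of them and called at an adjusted p under 0.05. The scale understates differences of transcripts near 1 FPKM. Depth came from the steps between low FPKM values, of which 92.2% to 93.8% were whole fragments within 0.05, with a search range set after the values were seen.

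Members and lists were chosen with earlier results of these data known, and roles were read from the annotation. The rule named up to 4 most abundant genes a role, the 5 largest differences each way, those called or 2-fold, and of the electron transport words those called and the 2 most abundant. The remaining members were named to account for the list, and ferredoxin I and the other transcripts were chosen after their values were seen. A search of promoters was not run, since no sequence of these genes was at hand. Alternatives were no normalization, a pseudocount of 0.1 or FPKM summed per gene (both also without normalization), upper-quartile scaling, no filter or 5 FPKM, limma without trend or robust, a replicate block, and each library left out.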

Additional observations from a re-analysis of the deposited data

How the results depend on the processing

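With 2 libraries a group, single genes have wide intervals, and 1 library can set a difference. Limma called 0 members higher and 0 lower in each alternative except without OsC3H10OX replicate 1, which gave 1 higher (0 to 1 over the libraries left out). Calls over all transcripts moved far more, from 453 to 126 with no filter, 287 with a filter of 5 FPKM, 573 with FPKM summed per gene (without normalization, where unsummed values gave 420), 178 and 0 without NT replicates 1 and 2, and 297 and 1029 without OsC3H10OX replicates 1 and 2. Whether replicate numbers pair the samples is not stated. The deviations of same-numbered libraries had r = -0.03 over transcripts, which cannot settle it. With a replicate block 0 members and 25 transcripts were called. The ferredoxin-like Os03g0659200 then had -1.33 with an adjusted p of 0.0962, and it ranged from -1.47 to -1.19 with libraries left out.

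Of the 51 members, 32 kept their sign in all alternatives, and 9 changed it outside the left-out libraries, none with a log2 difference larger than 0.15 in size. The median of the photosystem I antenna (-0.15) was -0.00460 without normalization and with summed FPKM, -0.00460 with a pseudocount of 0.1 and 0.0151 with upper-quartile scaling. That of the oxygen-evolving proteins (-0.17) was -0.0452, -0.0453 and -0.0255 without normalization, with a pseudocount of 0.1 and with upper-quartile scaling, and -0.204 with summed FPKM. That of the photosystem I subunits was 0.13 with upper-quartile scaling. With libraries left out these medians ran from -0.296 to -0.0125, from -0.340 to -0.0739 and from 0.0250 to 0.132, that of all members from -0.0854 to 0.104, and that of the other antenna proteins from 0.0390 to 0.252.

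Without normalization the log2 differences that turned were -0.0818 for Os01g0720500, 0.0554 for PsaD-like, 0.0145 for PsaE-like, 0.0607 for Os07g0148900, -0.0107 for Os01g0617900 and -0.0462 for HCF136-like. The pseudocount of 0.1 and the summing were also run without normalization. With the pseudocount they were -0.0822, 0.0555, 0.0145, 0.0608, -0.0111 and -0.0468 for the same genes and -0.0171 for Os02g0631100. With upper-quartile scaling they were -0.0622 for Os01g0720500, 0.0151 for Os06g0320500, 0.0751 for PsaD-like, 0.0342 for PsaE-like, 0.0804 for Os07g0148900 and -0.0267 for HCF136-like. With summed FPKM they were -0.0818 for Os01g0720500, 0.0339 for PsaD-like, 0.0145 for PsaE-like, 0.0607 for Os07g0148900, -0.0293 for PsaL-like, -0.232 for Os01g0617900 and -0.0462 for HCF136-like. The causes were not tested.

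With libraries left out, differences that changed sign ran from -0.0959 to 0.118 (Os01g0720500), -0.145 to 0.601 (Os03g0165375), -0.111 to 0.273 (Os02g0197600), -0.372 to 0.15 (Os09g0296800), -0.124 to 0.101 (PsaD-like), -0.229 to 0.202 (Os07g0148900), -0.000135 to 0.130 (PsaL-like), -0.426 to 0.152 (Os03g0731100), -0.133 to 0.163 (PsbW-like), -0.394 to 0.244 (PsbS-like), -0.216 to 0.00691 (Os07g0673550), -1.17 to 0.906 (Os07g0147550), -0.00368 to 0.129 (Os01g0501800), -0.0659 to 0.0990 (Os01g0617900), -0.358 to 0.380 (Os02g0631100), -0.0854 to 0.132 (HCF136-like), -0.446 to 0.148 (Psb28), -0.132 to 0.135 (plastocyanin) and -0.115 to 0.207 (Rieske domain gene). The 22 kDa gene ran from 0.294 to 1.62.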

Other observations

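Ferredoxin I of the chloroplast (Os08g0104600), the acceptor of electrons from photosystem I, had 205 and 184 FPKM in NT and 293 and 354 FPKM in OsC3H10OX. Both OsC3H10OX libraries were above NT, with a log2 difference of 0.83 (95% interval 0.49 to 1.16) and a limma adjusted p of 0.0790, just short of a call. Of the genes annotated as NDH or NDF proteins, which belong to the complex for cyclic electron flow around photosystem I, Os01g0959900 had 89.3 and 95.2 FPKM in NT and 48.4 and 74.2 FPKM in OsC3H10OX. Os02g0744000 had 71.9 and 78.6 FPKM in NT and 46.7 and 55.7 FPKM in OsC3H10OX, and Os08g0276100 had 29.7 and 31.7 FPKM in NT and 14.1 and 26.4 FPKM in OsC3H10OX. All 3 had separate groups, lower in OsC3H10OX and lowest in its replicate 1, with log2 differences of -0.55, -0.49 and -0.62 and limma adjusted p of 0.300, 0.177 and 0.381. These genes were chosen after their values were seen.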
